A study of Saccharomyces cerevisiae with 4 samples.

Results

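The genes described here code for the factors that drive cytosolic translation in budding yeast (Saccharomyces cerevisiae). They are 36 reading frames out of 6207, chosen by name: the subunits of initiation factors eIF1 to eIF5B, the poly(A)-binding protein PAB1, the elongation factors and the release factors SUP35 and SUP45. The list was drawn up with earlier results of these data known. Testing required a log ratio on all 4 arrays, which 32 of the 36 had (88.9%, against 49.6% of all reading frames). The other 4 were TIF4632, empty on every array, GCD6 and HEF3, each with a value on array 4 alone, and TIF4631, with values on arrays 3 and 4.

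Initiation begins when eIF2 carries the initiator tRNA to the small ribosomal subunit, with eIF1, eIF1A, eIF3 and eIF5 bound, while the eIF4 factors prepare the capped end of the mRNA and eIF5B joins the large subunit. Elongation then runs on eEF1A, which delivers charged tRNA, eEF2, which moves the ribosome along, and eEF3, an ATPase that fungi need for the cycle, until release factors free the finished chain at a stop codon. In growing yeast many of these transcripts are abundant and are known to change together with those of ribosomal proteins when growth conditions change.

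The cells were a wsc1 mutant of strain BY4741, with a defect in a sensor in the plasma membrane that detects damage to the wall, grown on YEPD, a rich medium, at 24 °C. One part of each culture received Congo Red at 30 µg/ml, a dye that binds wall polymers and disturbs wall assembly, and the other part received none. Cells were collected at 4 h. Both parts carried the mutation and no strain with intact WSC1 was analysed, so nothing here compares the mutant with a strain that has the sensor. The sources used here do not state the kind of mutation or its marker, and no array had a value for WSC1 itself (listed as SLG1).

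Each of 4 two-channel arrays compared treated with untreated RNA of 1 of 2 cultures, and dyes were swapped: arrays 1 and 3 carried the Congo Red RNA in Cy3, arrays 2 and 4 carried it in Cy5. Which arrays share a culture is not stated. All values below are log ratios of Congo Red over untreated, read as log2, so 1 unit is a doubling. Neither log base nor numerator is stated in the sources used here. The direction is therefore likely and not settled. It rests on genes known to be induced by the cell wall integrity pathway, of which 20 of 21 had positive values on every array. That list was chosen with earlier results of these data known, so it is not independent support. With the opposite numerator all signs given here would be reversed. Ratios show neither signal over background nor the level of a transcript. BY4741 is a MATa strain, and 5 of 6 MATa genes had a value on all 4 arrays, as did 0 of 4 MATalpha genes, which still held 4 of 16 possible values. Of 4 genes disrupted in BY4741, MET17 and URA3 had no value on any array. HIS3 and LEU2 had values on all 4, for LEU2 -0.31, 0.11, -0.30 and 0.30 on arrays 1 to 4.

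No change with Congo Red was detected for any of the 32 measured translation factor transcripts. In the limma fit to culture means, 0 of 32 passed an adjusted p of 0.05, where 2.6% of all 3080 tested reading frames did. Without adjustment 2 members passed 0.05, FUN12 and TEF1, both above 0, against 26.2% of all reading frames. Limma on single arrays, with dye orientation as a term, also called 0 members, with 10.4% of all reading frames called. The members' median was -0.05 (lowest -1.18, highest 0.62), beside -0.10 for all tested reading frames. Of the members, 13 had a mean above 0 (32.8% of all reading frames) and 19 below 0 (67.2%). This sign is not firm: the members' median became 0.04 when arrays were centred on the medians of the tested reading frames, 0.01 when they were also scaled, and 0.07 when centred on the medians of all values, a step that moved the median of all tested reading frames by 0.12.

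The precision set what could be seen. The moderated standard error (SE) of a member's mean, with n = 2 cultures, had a median of 0.09, and the 95% interval reached 0.24 to either side at the median. A mean within 0.2 of 0 was found for 26 of the 32, and for 30 the whole interval lay within 1 unit of 0, the exceptions being GCD2 and RPG1. The called gene nearest to 0 had a mean of 0.62 in size, a size that only GCD2 exceeded among the members. Changes smaller than that were therefore not detectable for most members, and a missed threshold does not show that a transcript stayed level.

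**Figure D1:**
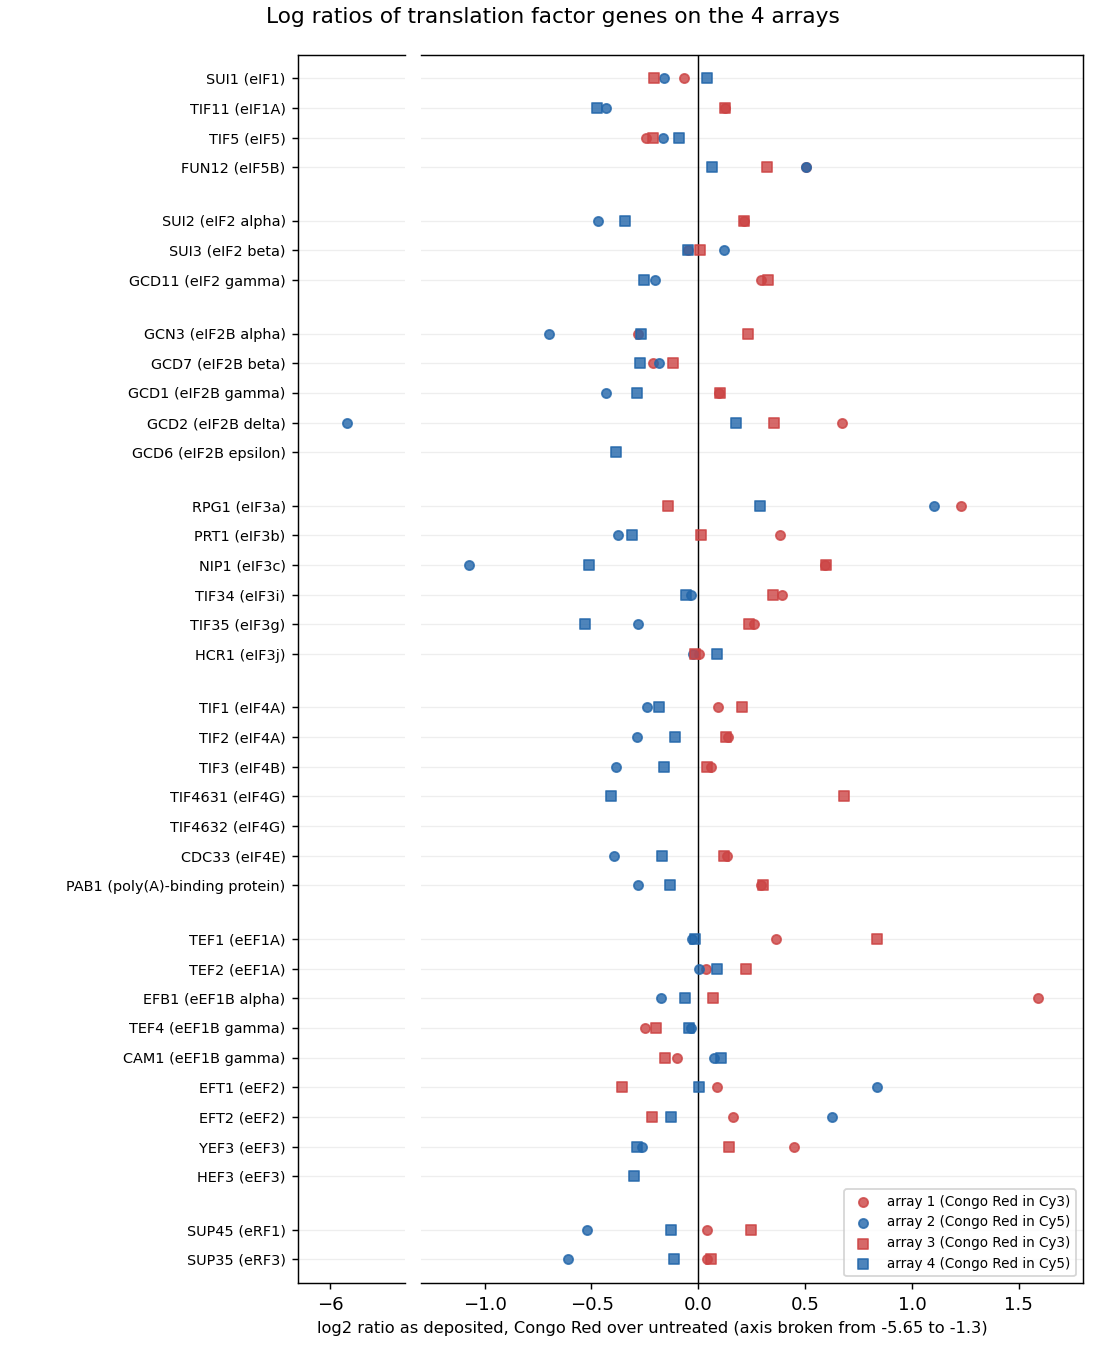
Log2 ratios of the 36 genes (x axis, broken in the empty stretch left of the main panel) on each array, with genes in rows by factor. Red marks arrays with Congo Red RNA in Cy3 and blue those with it in Cy5. In many rows the red points lie right of 0 and the blue points left of it, and GCD2 on array 2 lies alone at -5.92.

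**Figure D2:**
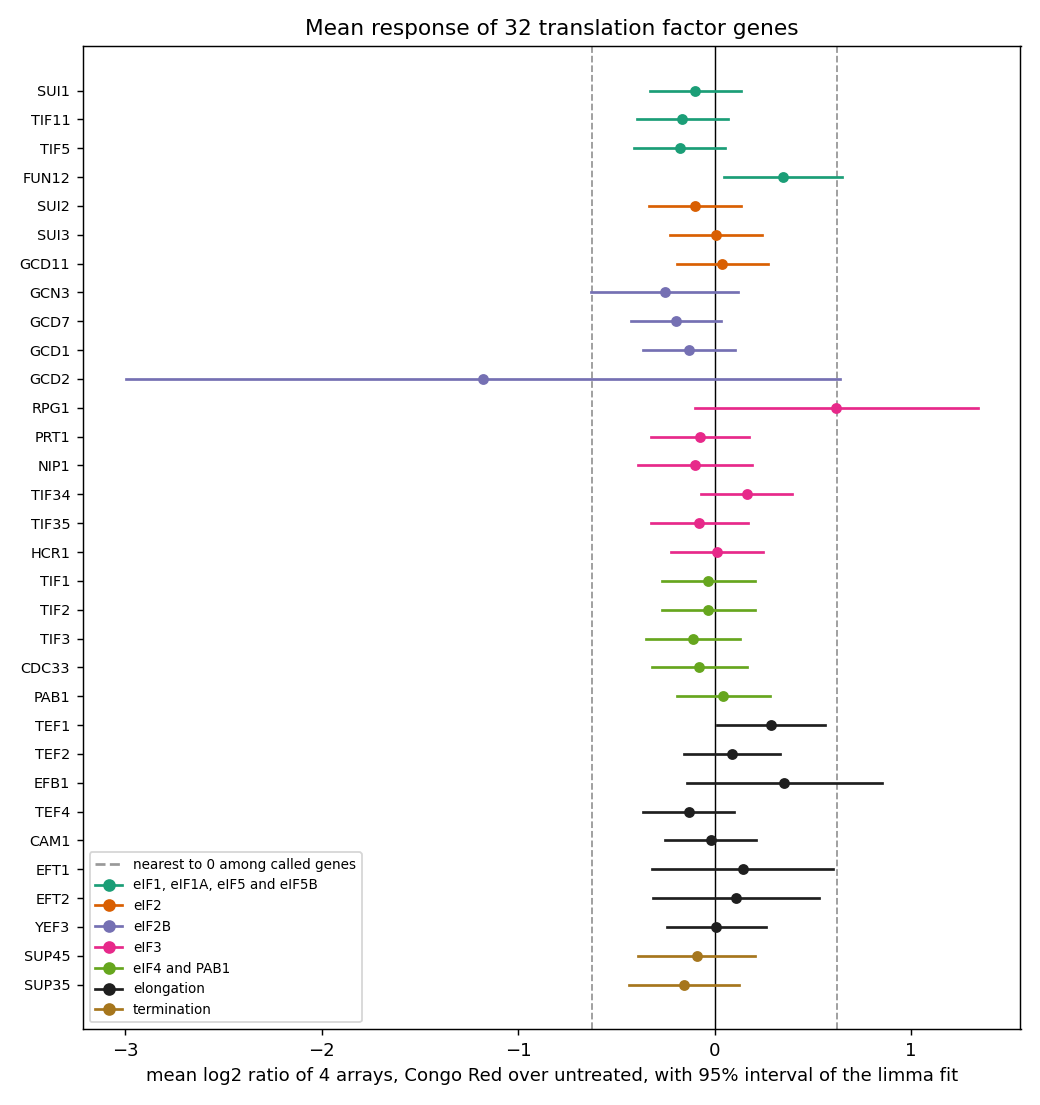
Mean log2 ratio of the 4 arrays (points) with the 95% interval of the limma fit (bars) for the 32 measured genes, coloured by factor. The dashed lines stand at 0.62 on either side of 0, the size of the called gene nearest to 0, and GCD2 alone lies outside them.

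Among the factors that set up and finish start codon selection, FUN12 (YAL035W) stood highest. It codes for eIF5B, the GTPase that joins the large subunit, and read 0.50, 0.50, 0.32 and 0.065 on arrays 1 to 4. It was above 0 on every array, a pattern seen in 2 of 32 members and 7.44% of all reading frames. Its mean was 0.35 ± 0.11 (moderated SE, n = 2 cultures), with a 95% interval from 0.05 to 0.65 and an adjusted p of 0.17 in the limma fit. It was called when arrays 1 and 4 were averaged as 1 culture (adjusted p = 0.0298), a fit that called 25.6% of all reading frames, and in the fit to single arrays without array 3 (0.39, adjusted p = 0.0254), which called 26.7% of all reading frames.

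TIF5 (YPR041W), the gene of eIF5, which triggers GTP hydrolysis by eIF2, was below 0 on every array, at -0.24, -0.17, -0.21 and -0.089. Its mean was -0.18 ± 0.088 (adjusted p = 0.26). Below 0 on all 4 arrays were 3 members, TIF5, GCD7 and TEF4, against 21.0% of all reading frames. SUI1 (YNL244C), coding for eIF1, which guards the choice of start codon, read -0.069, -0.16, -0.21 and 0.042, with no array far from the others. TIF11 (YMR260C), coding for eIF1A, its partner in scanning, read 0.13, -0.43, 0.13 and -0.48, so its sign followed the dye.

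The 3 eIF2 subunits had means close to 0. SUI2 (YJR007W), coding for the alpha subunit, through which the kinase Gcn2 slows initiation, read 0.21, -0.47, 0.21 and -0.34. GCD11 (YER025W), coding for the gamma subunit, which binds GTP and the initiator tRNA, read 0.29, -0.20, 0.33 and -0.26. Both were above 0 with Congo Red in Cy3 and below 0 with it in Cy5, so their means of -0.10 and 0.04 came from opposite values. SUI3 (YPL237W), coding for the beta subunit, read -0.051, 0.12, 0.0063 and -0.049 and had a mean of 0.0066 (adjusted p = 0.965).

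All 4 measured subunits of eIF2B, the exchange factor that reloads eIF2 with GTP, had means below 0, as did 67.2% of all reading frames. That count was the same under each centring and scaling tried, with 46.1 to 52.0% of all reading frames then below 0. The mean of GCD2 was below 0 through array 2 and was 0.34 without it. The group's median was -0.23, and it was -0.11 after centring on the medians of all values. GCD7 (YLR291C), coding for the beta subunit, read -0.21, -0.18, -0.12 and -0.27 and had the narrowest spread of the group, with a mean of -0.20 ± 0.087 (adjusted p = 0.224). GCD1 (YOR260W), coding for the gamma subunit, read 0.10, -0.43, 0.10 and -0.29, again split by dye. GCN3 (YKR026C), coding for the regulatory alpha subunit, read -0.28, -0.70, 0.23 and -0.27, with array 3 alone above 0. Its mean of -0.25 (adjusted p = 0.295) became -0.38 without array 3. GCN3 was called in that fit, where array 1 stood alone for its dye. GCD6, coding for the catalytic epsilon subunit, read -0.39 on array 4.

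GCD2 (YGR083C), coding for the delta subunit of eIF2B, held the most extreme value of the whole table. It read 0.67, -5.92, 0.35 and 0.18 on arrays 1 to 4, so 3 arrays lay above 0 and array 2 lay far below. The next lowest value of any reading frame on any array was -5.23, also on array 2. The mean of -1.18 ± 0.70 (adjusted p = 0.309) therefore rested on array 2: without it the fit gave 0.34 (adjusted p = 0.303). Without array 4 the mean was -2.70 and was called (adjusted p = 0.0175), where array 2 stood alone for its dye and 0.812% of all reading frames were called. GCD2 and the elongation gene EFB1 were the members with 1 array far from the other 3, which was the case for 3.25% of all reading frames.

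eIF3, the scaffold that holds the other factors on the small subunit, showed the widest range of means besides eIF2B. RPG1 (YBR079C, also known as TIF32), coding for the largest subunit, read 1.23, 1.10, -0.14 and 0.29. Arrays 1 and 2 were high and arrays 3 and 4 were near 0, a split that does not follow the dye. If arrays 1 and 2 share a culture, its culture means were 1.17 and 0.07, and if arrays 1 and 4 do, they were 0.76 and 0.48. The mean was 0.62 ± 0.27 (95% interval from -0.10 to 1.34, adjusted p = 0.222), the highest of all members. RPG1 was called in limma when arrays 1 and 4 were averaged as 1 culture (adjusted p = 0.0134), a fit that called 25.6% of all reading frames. Its mean was 0.96 without array 3 and 0.28 without array 1. The fit without array 3 called RPG1, as it did FUN12, with array 1 alone for its dye.

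The other core subunits had values unlike those of RPG1, split by dye. NIP1 (YMR309C), coding for eIF3c, read 0.59, -1.07, 0.60 and -0.51, and its mean was -0.10. PRT1 (YOR361C), coding for eIF3b, read 0.38, -0.37, 0.011 and -0.31. The small subunit genes TIF34 (YMR146C, eIF3i) and TIF35 (YDR429C, eIF3g), whose proteins bind each other, read 0.39, -0.033, 0.35 and -0.059 for the first and 0.26, -0.28, 0.24 and -0.53 for the second. All 4 of these genes were higher with Congo Red in Cy3. HCR1 (YLR192C), coding for the loosely bound eIF3j, had the narrowest range of all members, from -0.027 to 0.087.

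Genes of the cap-binding side of initiation had means between -0.11 and 0.045. All 5 measured members were above 0 with Congo Red in Cy3 and below 0 in Cy5, a pattern of 16.4% of all reading frames. Among these 5 are TIF1 and TIF2, which both code for eIF4A and whose signal may mix. CDC33 (YOL139C), coding for the cap-binding protein eIF4E, read 0.13, -0.39, 0.12 and -0.17, and its mean was -0.077. TIF3 (YPR163C), coding for eIF4B, which assists the helicase eIF4A, read 0.06, -0.39, 0.041 and -0.16. PAB1 (YER165W), whose protein binds the poly(A) tail and the scaffold eIF4G, read 0.29, -0.28, 0.30 and -0.13. Of the eIF4G genes, TIF4631 (YGR162W) read 0.68 on array 3 and -0.41 on array 4, opposite in sign as the dyes were, and TIF4632 (YGL049C) had no value.

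In the values as deposited the elongation genes were the group with most means above 0, 6 of 8 measured, with a median of 0.10. After each centring and scaling tried 7 of 8 were above 0, the exception being TEF4. The share of all reading frames above 0 went from 32.8% to between 48.0 and 53.9%. The elongation median then lay between 0.19 and 0.22. After centring on the medians of tested reading frames, eIF3 had 5 of 6 above 0 and eIF4 with PAB1 had 4 of 5. With scaling as well these were 3 of 6 and 3 of 5. After centring on the medians of all values, every measured gene of eIF2, eIF3 and eIF4 with PAB1 was above 0. TEF1 (YPR080W), coding for eEF1A, read 0.36, -0.032, 0.84 and -0.017. It was high on arrays 1 and 3 and close to 0 on arrays 2 and 4, with a mean of 0.29 ± 0.10 (95% interval from 0.01 to 0.56, adjusted p = 0.182). Without array 1 it was called, at 0.41 (adjusted p = 0.025), as were 12.2% of all reading frames. TEF2 (YBR118W), which codes for the same protein, read 0.038, 0.0036, 0.22 and 0.089, above 0 on every array but small.

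EFB1 (YAL003W), coding for the subunit of eEF1B that reloads eEF1A with GTP, read 1.59, -0.17, 0.069 and -0.065. Array 1 stood alone, and the other 3 lay near 0. Its mean of 0.36 ± 0.19 (adjusted p = 0.28) became -0.025 without array 1. Without array 3, where array 1 was alone for its dye, the mean was 0.73 and EFB1 was called. The 2 genes of the gamma subunit of eEF1B lay lower: TEF4 (YKL081W) read -0.25, -0.033, -0.20 and -0.042, and CAM1 (YPL048W) read -0.10, 0.074, -0.16 and 0.11. CAM1 was the 1 member below 0 with Congo Red in Cy3 and above 0 in Cy5, a pattern of 12.3% of all reading frames.

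The eEF2 genes EFT1 (YOR133W) and EFT2 (YDR385W) were both highest on array 2 and lowest on array 3. EFT1 read 0.089, 0.84, -0.36 and 0.0029, and EFT2 read 0.16, 0.62, -0.22 and -0.13. If arrays 1 and 2 share a culture, the culture means were 0.46 and -0.18 for EFT1 and 0.39 and -0.17 for EFT2. If arrays 1 and 4 do, they were 0.046 and 0.24 for EFT1 and 0.017 and 0.20 for EFT2. The means of EFT1 and EFT2 were 0.14 ± 0.17 and 0.11 ± 0.16 (adjusted p = 0.605 and 0.667), and without array 2 they were -0.066 and -0.079. YEF3 (YLR249W), coding for the main form of eEF3, read 0.45, -0.26, 0.14 and -0.29, with a mean of 0.0095. Its paralog HEF3 (YNL014W) read -0.30 on array 4, where YEF3 read -0.29.

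Both release factor genes were close to each other. SUP45 (YBR143C), coding for eRF1, which reads the stop codon, read 0.041, -0.52, 0.25 and -0.13. SUP35 (YDR172W), coding for the GTPase eRF3, known also for its prion form, read 0.041, -0.61, 0.061 and -0.12. In each the lowest value was that of array 2, and the means were -0.09 and -0.16 (adjusted p = 0.609 and 0.371).

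Several members are paralogs, and some of the pairs have the same or nearly the same coding sequence. What the probes were is not stated in the sources used here, so signal of such partners may mix and they are not independent. Sequence identity of the pairs was not computed. TIF1 (YKR059W) and TIF2 (YJL138C), which both code for the helicase eIF4A, differed by at most 0.08 on any array and had the same mean of -0.032. EFT1 and EFT2, which code for the same protein, differed by at most 0.21. TEF1 and TEF2 differed more, with TEF1 higher by 0.32 on array 1 and by 0.61 on array 3 and lower by 0.04 and 0.11 in size on arrays 2 and 4. TEF4 lay below CAM1 on all 4 arrays, by a mean of -0.11 (SD 0.05 over 4 arrays) for TEF4 minus CAM1.

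A split by dye was the most frequent pattern among the members. With Congo Red in Cy3 above 0 and in Cy5 below 0 on both arrays of each kind were 18 of 32 members (56.3%), a pattern of 16.4% of all tested reading frames. They were 13 of the 22 measured initiation genes with PAB1, 3 of 8 elongation genes and both release factor genes. The members' count was 16 after centring on the medians of tested reading frames, also with scaling, and 15 after centring on the medians of all values (50 and 46.9%, beside 17.3 and 16.7% of all reading frames). The dye effect, the mean of arrays 1 and 3 minus that of arrays 2 and 4, was above 0 for 23 of 32 members (47.2% of all reading frames), with a median of 0.41 against -0.03. Across all tested reading frames, arrays of the same dye orientation were also the more alike. Their Spearman correlation was 0.64 for arrays 1 and 3 and 0.69 for arrays 2 and 4. For pairs of opposite orientation it lay between -0.26 and 0.10. The members share arrays and labelling reactions, and their split by dye was not tested as a property of the list. A dye effect of equal size on both arrays of a culture cancels in the means given above, and whether it was equal was not tested. If arrays 2 and 4 had been left unturned by the submitters, the split itself would be the response. Whether they had been turned was not tested. As deposited, 20 of 21 genes known to be induced by the cell wall integrity pathway were above 0 on every array.

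For 4 members the dye effect passed an adjusted p of 0.05 in limma on single arrays, all of them above 0, where 8.15% of all reading frames were called above 0. NIP1 had an effect of 1.39 ± 0.22 (adjusted p = 0.0244), larger than that of 98.6% of all tested reading frames. TIF35 had 0.65 ± 0.16 (adjusted p = 0.0466), SUI2 0.62 ± 0.14 (adjusted p = 0.0433) and TIF11 0.58 ± 0.14 (adjusted p = 0.0457). In each the values of the 2 dyes did not overlap. These genes were picked by the dye effect on the same values, so this adds no support. With reading frames on at least 3 arrays NIP1 alone stayed called, and after centring and scaling TIF35 lost its call while GCD1 gained one. Centring on the medians of tested reading frames gave 6 calls, these 4 with GCD11 and PAB1. This fit takes the 4 arrays as independent although 2 share a culture. Without array 2 it called 0 members (0 of all reading frames, with 747 at an unadjusted p below 0.05) and without array 4 it called GCD2 alone, the 1 call among all reading frames (0.0325%). NIP1 was called without array 1 and without array 3 (21.5 and 21.4% of all reading frames called), and the other 3 genes in neither case. The dye difference of GCD2 (3.38 ± 1.86), larger than in all 4 called genes, was not called. Nor was that of EFB1 (0.95 ± 0.48), larger than in each of them but NIP1.

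**Figure D3:**
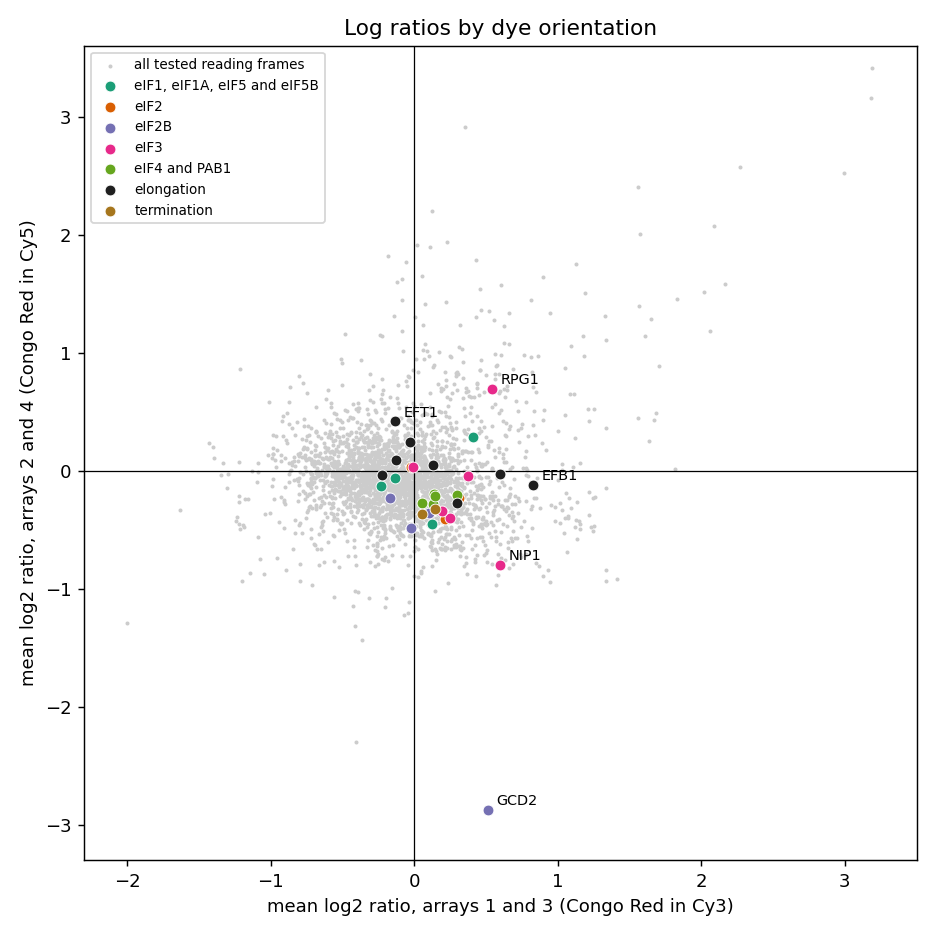
Mean log2 ratio of arrays 1 and 3 (x axis, Congo Red in Cy3) against that of arrays 2 and 4 (y axis, Congo Red in Cy5) for the 3080 tested reading frames (grey) and the 32 measured translation factor genes (coloured by factor). A response that does not depend on the dye lies on the rising diagonal, and 18 of the coloured points lie right of 0 on the x axis and below 0 on the y axis.

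Other genes of translation, set beside these as values, also gave no call. Of 21 further cytosolic translation factors and regulators 16 were tested and 0 called, with a median of -0.03. The largest means in that list were those of ANB1 and HYP2, the paralogs that code for eIF5A, which helps ribosomes through difficult peptide bonds. ANB1 read 0.12, 0.53, 0.20 and 0.29 (mean 0.29, adjusted p = 0.16) and HYP2 read 0.04, 0.59, -0.04 and 0.51 (mean 0.27, adjusted p = 0.168). Here the Cy5 arrays were the higher ones. Of 18 cytosolic aminoacyl-tRNA synthetases 0 were called, with a median of -0.13, led by MES1 at -0.32 (adjusted p = 0.147) and TYS1 at -0.30 (adjusted p = 0.152), the synthetase genes for methionine and tyrosine. Of 9 tested chaperones and modifying enzymes of nascent chains 0 were called, with a median of -0.09 and with NAT1 at -0.23 and ARD1 at -0.17, subunits of an acetyltransferase. Of 3 tested mitochondrial translation factors 0 were called, with MRF1, a release factor gene, at -0.25 and AIM23 at -0.16.

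Ribosomal protein genes, the nearest relatives in function, had means that lay mostly below 0. Of 126 tested cytosolic ribosomal protein genes 118 had a mean below 0 (93.7%, beside 67.2% of all reading frames), with a median of -0.14, and 59 were below 0 on all 4 arrays (46.8%). After centring on the medians of tested reading frames 92 were below 0 (73.0%, beside 51.8%), with a median of -0.05, and after centring on the medians of all values 78 were (61.9%, beside 46.1%), with a median of -0.02. Of 47 mitochondrial ribosomal protein genes 42 had a mean below 0, with a median of -0.28, and 38 and 37 did after these centrings, with medians of -0.19 and -0.16. Limma called 0 in either list. Below 0 with an unadjusted p under 0.05 were 12 of the cytosolic genes (9.52%) and 24 of the mitochondrial ones (51.1%), beside 18.4% of all reading frames. The dye split of the members was found in 18.3% of the cytosolic and 2.13% of the mitochondrial ribosomal protein genes, and in 29.4 and 4.26% after centring on the medians of tested reading frames. On arrays 1 and 3 the median of the initiation genes with PAB1 was 0.14 and 0.13, and that of cytosolic ribosomal proteins was -0.11 and -0.10. On arrays 2 and 4 the initiation median was -0.28 and -0.16, and that of cytosolic ribosomal proteins -0.20 and -0.13. The difference between the groups was not tested.

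**Figure D4:**
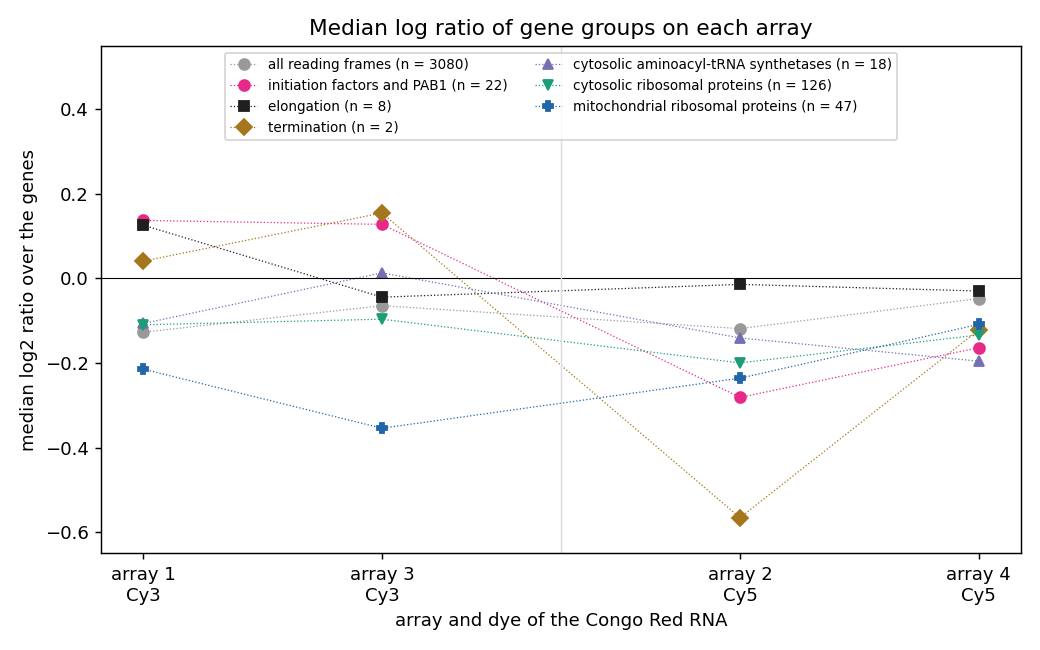
Median log2 ratio (y axis) of 7 gene groups on each array, with the 2 arrays that carried Congo Red RNA in Cy3 on the left and the 2 with it in Cy5 on the right. Dotted lines only join the points of a group. Initiation genes and release factor genes lie above 0 on the left and below 0 on the right, and cytosolic ribosomal proteins lie below 0 on all 4 arrays in the values as deposited.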

How the data were processed

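The deposited values are the authors' log ratios, 1 for each reading frame on each array, and were taken as log2. The sources used here state no log base, numerator, background correction, normalization, scanner or rule for empty cells. Labels and design text differ on how long cells grew before Congo Red was added. Of 6209 rows, 2 control spots were left out. Symbols came from the RefSeq gene table of assembly R64 (5129 of 6207 reading frames); no coordinates are given, since the build of the array design is unknown.

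Values were used as deposited, as already turned to Congo Red over untreated. Pairs of arrays with swapped dyes were averaged into culture means under both pairings possible (1 with 2 and 3 with 4, or 1 with 4 and 2 with 3) and fitted with limma 3.58.1 in R 4.3.3 (lmFit, eBayes, two-sided). Of the 2 pairings the larger p and SE count, with Benjamini-Hochberg adjustment over the 3080 reading frames with values on all 4 arrays (threshold 0.05). The dye effect came from limma on single arrays with dye orientation as a term. Fits were tested on simulated data with independent noise on each array and no variation between cultures. Dependence between arrays of a culture was therefore not checked. The precision is limited by the number of arrays: 2 cultures. Members, lists and the reading of the direction were chosen with earlier results of these data known. All members are named; other lists give their 2 largest means when none was called.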

Additional observations from a re-analysis of the deposited data

Results flagged for a closer look

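For each of the 32 genes the highest or lowest of the 4 arrays was set against the other 3, and 2 genes had 1 array apart from the rest (a gap to the nearest array above Dixon's critical share of the range, found in 3.25% of all tested reading frames; chance flags about 1 in 20 such groups). GCD2 was at -5.92 on array 2 and between 0.18 and 0.67 on the others. EFB1 was at 1.59 on array 1 and between -0.17 and 0.069 on the others.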

How the results depend on the processing

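No paired analysis was possible because the replicate numbers only number the arrays of a single group, in which each ratio already sets treated against untreated RNA. The count of 0 called members was the same with arrays 1 and 2 as a culture, with each centring and scaling, in both fits to single arrays, with values on at least 3 arrays, and with arrays 2 and 4 turned. It was 2 with arrays 1 and 4 as a culture (25.6% of all reading frames called) and from 0 to 4 when 1 array was left out. Leaving out an array needs limma on single arrays with dye orientation as a term, in which a lone array of a dye is assumed to vary like the others. The members' median of -0.05 was 0.21 with arrays 2 and 4 turned, which makes the dye effect the response, and from -0.06 to -0.02 without 1 array. The dye effect was called for 1 member with values on at least 3 arrays, and for 0 to 4 without 1 array, beside 4 with all. Of all reading frames, 80 were called for Congo Red (47 above 0, 33 below): 787 with arrays 1 and 4 as a culture (255 and 532), 4 after centring on the medians of tested reading frames (4 and 0), 31 when also scaled (29 and 2), 32 after centring on the medians of all values, chosen after seeing the data (30 and 2), 320 in single arrays with a dye term (121 and 199), 36 without it (28 and 8), 214 with values on at least 3 arrays (95 and 119), 0 with arrays 2 and 4 turned (857 at an unadjusted p below 0.05), and 13 to 823 without 1 array. The 493 dye effects were 0 to 661 without 1 array. The pairings, the fits to single arrays and the filter on values leave a member's mean the same by construction. Over the 8 other alternatives and 256 recomputed means, 27 moved by more than 1 SD of the 4 arrays, a yardstick that holds the dye difference too, 6 gained a call and 223 did neither. The cause of these differences was not tested. The number of arrays, the unstated pairing and numerator, the centring and the unknown signal over background all limit these results.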
